A study of Mus musculus with 12 samples.

Results

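The EZH2 inhibitor GSK343 was compared with vehicle in wild-type mouse neutrophils grown from an immortalized progenitor line. The comparison took in 4 of the series' 12 arrays, 2 given GSK343 and 2 given vehicle, chosen by their titles alone, and all 65956 transcript clusters left from 72688 table entries once 6732 control probe sets were removed. A transcript cluster is the array's unit for a gene or transcribed region, and each has 1 log2 signal per array. The cells were HoxB8-ER cells of the C57BL/6 strain, made by transducing bone marrow of wild-type littermate controls with HOXB8 joined to the ligand-binding domain of the estrogen receptor. Estradiol at 0.5 µM kept them as dividing promyelocyte-like progenitors, and its removal let them mature into neutrophils over 6 days. Both groups share this genotype, strain, transgene and maturation. The treated group is labelled as given GSK343 at 0.5 µM for 9 days, whereas the design text states 1 µM, and which dose applies could not be settled. The labels do not name the vehicle or say how the 9 days of drug lay against the 6 days of maturation. The other 8 arrays, which hold untreated wild-type and Ezh2-/- progenitors and neutrophils, entered the same model so that the spread was estimated over all 6 groups. Nothing in the labels tells whether the cells are 1 line or several, or whether the 2 arrays of a group came from separate cultures. The p-values therefore reflect variation among arrays that could be purely technical.

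EZH2 is the enzyme within Polycomb repressive complex 2 (PRC2) and methylates lysine 27 of histone H3 at genes that are kept silent. GSK343 competes with the methyl donor of the enzyme and so blocks its activity without removing the protein. Maturing neutrophils fill their granules in waves: the primary granule proteins, such as myeloperoxidase, are made by promyelocytes, the secondary granule proteins by later precursors, and gelatinase and other tertiary granule proteins shortly before maturity. Progenitors of this kind stand close to those of eosinophils, basophils and mast cells, whose granules hold other proteases and toxic basic proteins. The question the arrays address is whether the expression of such genes differs between neutrophils given GSK343 and neutrophils given vehicle. The arrays do not measure EZH2 activity or the methylation of histone H3.

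The 4 arrays were alike in overall level, with medians of 3.88 to 3.96, background limits of 4.83 to 5.20 and 28.8 to 32.3% of clusters above background. Background was set on each array so that 95% of the 23 antigenomic controls, probe sets made to match no genome, lay below it. GSK343 array 1 stood somewhat apart: it correlated with the vehicle arrays at 0.9894 and 0.9913, whereas GSK343 array 2 correlated with both at 0.9947, closer than with its own replicate (0.9935). The highest value on GSK343 array 1 was 19.40, shared by 92 clusters, and on each of the other 3 arrays it was 19.93, shared by 21 clusters. Of 63 clusters above 16 whose values on those 3 arrays lay within 0.02 of each other, GSK343 array 1 read a median of −0.49 below them. No fold is therefore given for genes at the top of the scale, and for several lists the counts are also given with GSK343 array 2 alone.

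Over all clusters, 1 passed the test, at an adjusted p under 0.05 (0.00152% of those tested), and it was higher with GSK343. An adjusted p is from limma with Benjamini-Hochberg adjustment over all 65956 clusters. At an unadjusted p under 0.05 stood 3963 clusters (6.01%), 2373 of them higher (3.6%) and 1590 lower (2.41%). A difference of at least 2-fold was seen in 238 clusters with GSK343 higher (0.361%) and 173 lower (0.262%), and the quartiles of all differences were −0.12 and 0.13 on the log2 scale. The 2 groups did not overlap in 38.1% of clusters. Among the 30748 named genes, 24.7% lay higher on both GSK343 arrays than on both vehicle arrays and 16.5% lay lower. The precision of every value is limited by having 2 arrays in each group. Below, a gene with non-overlapping groups is one whose 2 GSK343 arrays both lay on the same side of both vehicle arrays, which says nothing about passing the test. Counts on 1 GSK343 array alone follow a looser rule, so the shares of 24.7% and 16.5% do not apply to them. The share of all named genes on 1 array alone was not computed.

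Cpa3, which encodes carboxypeptidase A3, a protease of mast cell and basophil granules, was the gene that passed. Its log2 signal was 14.88 and 14.79 on the GSK343 arrays and 11.76 and 11.93 on the vehicle arrays. Cpa3 rose 7.96-fold (log2 difference 2.99, SE 0.224, 95% interval 2.49 to 3.50, adjusted p = 0.0187). Both treated arrays lay far above both vehicle arrays, and replicates differed by far less than the groups did. The size of the difference held when any 1 of the 4 arrays was left out, from 2.91 to 3.08, but the call did not: the adjusted p was 0.278 without GSK343 array 1, 0.0703 without GSK343 array 2, 0.427 without vehicle array 1 and 0.354 without vehicle array 2. It was 0.0666 when the model held the 4 drug arrays alone.

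**Figure D1:**
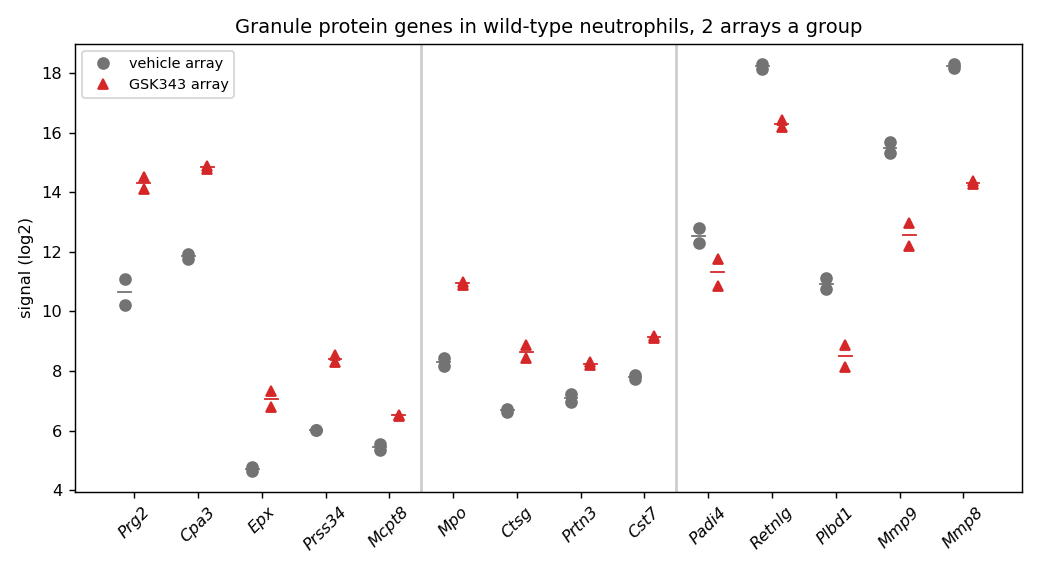
Log2 signal (vertical axis) of 14 granule and late neutrophil genes on each vehicle array (grey circles) and GSK343 array (red triangles), with short bars at the mean of the 2 arrays of a group. The 5 genes at the left belong to eosinophils, basophils and mast cells, the next 4 to primary granules and the last 5 to late neutrophil genes. The 14 were picked with their values known, and in all of them the groups do not overlap. In the full lists the groups overlap in 5 of 18 mast cell, basophil and eosinophil markers and 1 of 10 primary granule genes. They also overlap in 6 of 13 secondary granule genes and 5 of 14 tertiary granule and late neutrophil genes.

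Other granule genes of the eosinophil, basophil and mast cell lines lay higher with GSK343 without passing the test, by log2 differences of 1.07 to 3.66. Prg2, which encodes the major basic protein of eosinophil granules, measured 14.51 and 14.12 with GSK343 against 11.08 and 10.22 with vehicle. This was the largest difference of any cluster on the higher side, 12.7-fold (log2 difference 3.66, SE 0.526, adjusted p = 0.169), and the vehicle arrays differed from each other by nearly a log2 unit. Epx, the eosinophil peroxidase gene, stood at 6.78 and 7.32 against 4.79 and 4.64, both at or below background with vehicle. Epx was at least 3.98-fold higher (fitted log2 difference 2.33, SE 0.220, adjusted p = 0.0537), the bound being set against the background level. Prss34, a protease of basophils and mast cells, read 8.53 and 8.30 against 6.04 and 6.02, a log2 difference of 2.38 (SE 0.329, adjusted p = 0.166). Mcpt8, a basophil protease, read 6.50 and 6.54 against 5.55 and 5.35, a log2 difference of 1.07 (adjusted p = 0.167). For each of these 4 genes both treated arrays lay above both vehicle arrays, and a miss of the threshold does not show that they were the same. Ear-ps9, a pseudogene of the eosinophil-associated ribonuclease family, read 5.60 and 5.40 against 4.01 and 3.80, the vehicle arrays lying below background, at least 1.36-fold higher (fitted log2 difference 1.59, adjusted p = 0.0537).

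The other defining genes of those lines differed little or lay lower. Of the 18 measured markers of mast cells, basophils and eosinophils, 11 lay higher without overlap and 2 lower, against 24.7% and 16.5% of all named genes. Among these markers 1 passed the test, and the median difference was 0.11. The list was 5 genes of large difference and 13 of small difference. Of the 18, 7 were never above background on these arrays; Gata1, a transcription factor of erythroid, mast cell and eosinophil lines, read 3.47 and 3.44 against 3.36 and 3.43. Il5ra, the interleukin 5 receptor chain of eosinophils, read 3.44 and 3.51 against 3.24 and 3.56, and its groups overlapped. Fcer1a, a chain of the high-affinity IgE receptor, read 3.72 on both treated arrays against 3.67 and 3.59. A pair of markers well above background lay lower: Hdc, which makes histamine, at 12.28 and 12.44 against 13.13 and 13.00, and Siglecf, a surface lectin of eosinophils, at 8.42 and 8.51 against 9.09 and 9.04 (adjusted p = 0.959 and 0.927). The summed signal of the 18 markers, on the linear scale, was 59738 and 53035 with GSK343 against 15624 and 14282 with vehicle, and Hdc held the larger share of it on the vehicle arrays. In bulk RNA, a change in the number of cells of a type and a change in RNA per cell cannot be told apart.

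Primary granule genes, which promyelocytes transcribe, lay higher with GSK343. Of 10 measured, 9 lay higher without overlap and none lower, against 24.7% and 16.5% of all named genes, and the median difference was 0.91 against 0.02 for all named genes. None passed the test, 4 had an unadjusted p under 0.05 against 4.99% of named genes, and the smallest adjusted p was 0.346. Each GSK343 array alone placed 9 of the 10 above both vehicle arrays. Mpo, myeloperoxidase, read 10.89 and 10.99 against 8.44 and 8.17, a 6.22-fold difference (log2 2.64, SE 0.579, adjusted p = 0.346). Ctsg, cathepsin G, read 8.86 and 8.43 against 6.73 and 6.64 (log2 difference 1.97, adjusted p = 0.680). Both were well apart between groups. Prtn3, proteinase 3, read 8.30 and 8.19 against 7.22 and 6.95, and Cst7, which encodes an inhibitor of cathepsins, read 9.18 and 9.11 against 7.72 and 7.86. Elane, neutrophil elastase, read 6.93 and 7.43 against 6.41 and 6.24. Bpi, a bactericidal protein, was the member whose groups overlapped, at 3.48 and 3.44 against 3.45 and 3.48, near the floor of the arrays.

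Several late neutrophil genes lay lower with GSK343. Mmp8, neutrophil collagenase of the secondary granules, read 14.28 and 14.36 with GSK343 against 18.29 and 18.16 with vehicle. This was the largest difference on the lower side of any cluster, 15-fold (log2 −3.90, SE 0.478, 95% interval −4.98 to −2.82), and it did not pass the test (adjusted p = 0.119). Mmp8 did pass when the model held only the 4 drug arrays (adjusted p = 0.0274) and when replicate number was a block (adjusted p = 0.00117). It did not pass with that block on the 4 drug arrays alone (0.0763), nor with 1 array left out: the adjusted p was 0.991 without GSK343 array 1, 0.145 without GSK343 array 2, 0.813 without vehicle array 1 and 0.857 without vehicle array 2, with log2 differences of −3.97 to −3.84. Mmp9, gelatinase of the tertiary granules, read 12.21 and 12.96 against 15.68 and 15.31 (log2 difference −2.91, SE 0.403, adjusted p = 0.166). Plbd1, a phospholipase-like granule protein, read 8.13 and 8.86 against 11.11 and 10.75 (log2 difference −2.43, adjusted p = 0.234). Retnlg, which encodes a secreted protein of the resistin family, read 16.19 and 16.41 against 18.14 and 18.29 (log2 difference −1.92, adjusted p = 0.234). In each of these 4 genes both treated arrays lay below both vehicle arrays. Padi4, which converts histone arginines and takes part in neutrophil extracellular trap formation, read 10.87 and 11.77 against 12.79 and 12.30, and Arg2, the mitochondrial arginase, read 5.46 and 5.12 against 6.65 and 6.71.

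Around these genes most late granule genes differed little. Of 13 secondary granule genes 7 lay lower without overlap and none higher, and of 14 tertiary granule and late neutrophil genes 7 lay lower and 2 higher, against 16.5% lower and 24.7% higher of all named genes. The median was −0.27 in both lists, no member was called, and 5 of the 14 had an unadjusted p under 0.05 on the lower side, against 1.64%. On GSK343 array 1, 13 of 13 secondary and 10 of 14 tertiary genes lay below both vehicle arrays, against 7 of 13 and 7 of 14 on GSK343 array 2, and without GSK343 array 1 the medians were −0.03 and −0.02. The part of that array's lower highest value in this was not tested. Lcn2, Chil3, Lyz2, S100a8 and Stfa2l1 lay at or near the top of the scale, and no fold is read for them. Camp, the cathelicidin gene, below that range, read 14.82 and 14.68 against 15.19 and 15.30 (log2 difference −0.50, adjusted p = 0.997). Hpse, heparanase, went the other way at 12.65 and 12.43 against 11.80 and 11.67. The 10 defining neutrophil markers were above background on every array in both groups. So were 14 of 19 monocyte and macrophage markers, on both arrays of at least 1 group. Of the 10 neutrophil markers 8 lay lower without overlap (10 on GSK343 array 1 and 8 on GSK343 array 2 taken alone), with a median of −0.54 (−0.38 without GSK343 array 1); 3 had an unadjusted p under 0.05 on the lower side, against 1.64% of named genes. The growth factor receptor gene Csf3r read 13.61 and 14.24 against 14.71 and 14.30, and the chemokine receptor gene Cxcr2 read 12.75 and 13.00 against 13.48 and 13.50.

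The promoters of 6 genes, chosen after their values were seen to stand for both directions, are shown as RefSeq gives them on GRCm38.p6, from 250 bases before to 50 after the start of each gene, 5′ to 3′ on the gene's strand, with CG dinucleotides in capitals. Cpa3, Epx, Prss34 and Mpo stand for the higher genes and Mmp8 and Retnlg for the lower ones. The stretches are chr3:20242132-20242431 (minus strand) for Cpa3, chr11:87875487-87875786 (minus) for Epx, chr17:25298144-25298443 (plus) for Prss34, chr11:87793534-87793833 (plus) for Mpo, chr9:7558179-7558478 (plus) for Mmp8 and chr16:48872358-48872657 (plus) for Retnlg. They hold 3, 5, 3, 2, 4 and 4 CG dinucleotides in that order, against a median of 16 over 15362 promoters of protein-coding genes.
Cpa3: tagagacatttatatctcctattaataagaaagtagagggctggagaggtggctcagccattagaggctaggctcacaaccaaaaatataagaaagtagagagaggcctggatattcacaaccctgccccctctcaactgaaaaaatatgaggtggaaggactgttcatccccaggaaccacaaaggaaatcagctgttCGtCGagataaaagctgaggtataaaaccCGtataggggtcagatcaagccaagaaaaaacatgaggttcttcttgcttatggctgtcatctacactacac
Epx: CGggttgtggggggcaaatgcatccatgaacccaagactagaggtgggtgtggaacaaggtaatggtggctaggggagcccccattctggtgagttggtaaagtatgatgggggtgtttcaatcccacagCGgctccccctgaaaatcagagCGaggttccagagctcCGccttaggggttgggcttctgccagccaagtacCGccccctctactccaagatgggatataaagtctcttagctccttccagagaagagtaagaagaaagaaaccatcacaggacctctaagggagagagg
Prss34: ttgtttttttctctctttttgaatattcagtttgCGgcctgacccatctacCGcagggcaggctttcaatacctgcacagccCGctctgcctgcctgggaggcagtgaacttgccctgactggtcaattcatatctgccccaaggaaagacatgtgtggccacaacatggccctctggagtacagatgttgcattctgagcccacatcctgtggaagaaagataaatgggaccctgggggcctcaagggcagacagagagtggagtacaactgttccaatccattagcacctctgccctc
Mpo: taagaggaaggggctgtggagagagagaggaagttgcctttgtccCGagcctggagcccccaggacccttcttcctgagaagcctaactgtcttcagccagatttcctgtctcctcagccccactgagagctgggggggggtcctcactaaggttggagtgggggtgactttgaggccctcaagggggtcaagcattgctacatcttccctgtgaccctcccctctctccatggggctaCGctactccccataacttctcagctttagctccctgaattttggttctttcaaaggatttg
Mmp8: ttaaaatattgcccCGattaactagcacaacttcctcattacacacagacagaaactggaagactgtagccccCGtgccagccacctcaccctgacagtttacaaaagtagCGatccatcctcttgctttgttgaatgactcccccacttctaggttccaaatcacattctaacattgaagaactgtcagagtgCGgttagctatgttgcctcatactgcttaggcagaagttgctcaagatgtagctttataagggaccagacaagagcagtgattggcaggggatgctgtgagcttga
Retnlg: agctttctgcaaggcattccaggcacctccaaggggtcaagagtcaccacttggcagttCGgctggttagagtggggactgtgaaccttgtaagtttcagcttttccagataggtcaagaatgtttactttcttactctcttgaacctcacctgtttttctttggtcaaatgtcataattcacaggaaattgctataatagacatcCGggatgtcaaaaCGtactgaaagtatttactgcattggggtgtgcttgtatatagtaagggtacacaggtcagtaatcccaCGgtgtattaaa
The letters AGATAA, the core bound by GATA factors, searched on both strands, occurred in the windows of Cpa3 and Prss34 and in none of the other 4. TTGCNNAA, the core of C/EBP sites, occurred in the windows of Mmp8 and Retnlg and in none of the other 4. These letters are found in 11.0% and 11.6% of protein-coding promoters of the same length, so a match is a description and not a site. Over the 28 protein-coding genes at least 2-fold higher with a promoter, of 38, the median CG count was 8, and over the 22 of 29 that were lower it was 4. Both directions thus had fewer CG dinucleotides than protein-coding genes as a whole, a description with no test. In these sets AGATAA occurred in 10.7% of the higher and 9.09% of the lower promoters, and TTGCNNAA in 17.9% and 22.7%. The clean split among the 6 chosen windows was thus not seen over the sets.

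Cell cycle genes lay higher with GSK343 as a group. Of 25 measured, 24 lay higher without overlap and none lower, against 24.7% and 16.5% of all named genes, and the median difference was 0.68. None passed the test, 9 had an unadjusted p under 0.05, and the smallest adjusted p was 0.411. Each GSK343 array alone placed 24 and 25 of the 25 above both vehicle arrays, and the median stayed between 0.62 and 0.70 when any 1 of the 4 arrays was left out. Mcm6, a subunit of the replicative helicase, read 11.02 and 10.69 against 10.04 and 10.17 (log2 difference 0.75, SE 0.183). Ccna2, cyclin A2, read 12.32 and 12.04 against 10.95 and 11.15 (log2 difference 1.13, SE 0.401), and Plk1, a mitotic kinase, read 10.65 and 10.67 against 9.50 and 9.58. Pcna, the clamp of the replication polymerases, read 12.62 and 12.41 against 11.77 and 11.91. E2f1, a transcription factor of S phase entry, was the member whose groups overlapped, at 6.26 and 6.41 against 6.34 and 6.11. Of genes typical of progenitors, 11 of 19 lay higher without overlap and 2 lower, with a median of 0.13. Muc13, a transmembrane mucin, read 7.57 and 7.46 against 6.08 and 6.48 (log2 difference 1.23, adjusted p = 0.259) and Cd34 read 8.95 and 8.69 against 7.82 and 7.86 (0.98, adjusted p = 0.358).

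**Figure D2:**
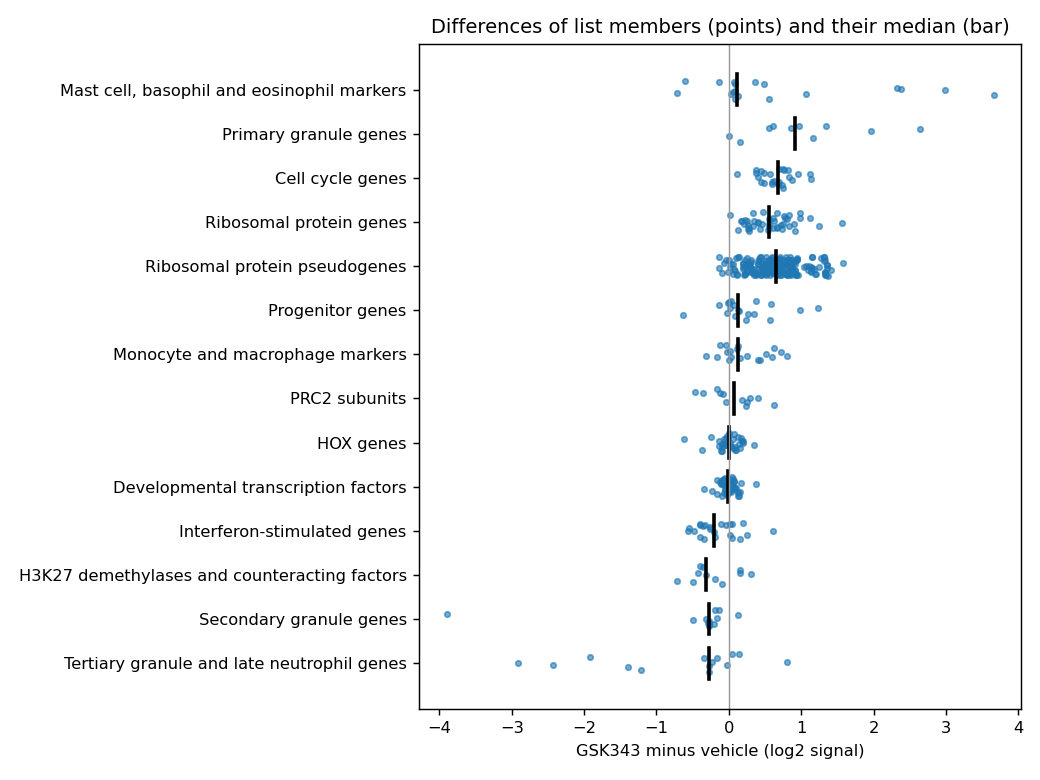
Log2 signal of GSK343 minus vehicle (horizontal axis) for each member (points) of 14 gene lists, with a bar at the list's median. Primary granule, cell cycle and ribosomal lists have medians of 0.56 to 0.91, and the late granule lists have a few members far to the left, down to −3.90.

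Ribosomal protein genes, listed after their values had been seen, also lay higher. Of 44, 41 lay higher without overlap and none lower, against 24.7% and 16.5% of all named genes. The median difference was 0.56, and 26 had an unadjusted p under 0.05, against 4.99% of all named genes on the higher side. Rplp0, the acidic ribosomal protein, read 11.32 and 11.14 against 10.53 and 10.45 (log2 difference 0.75, adjusted p = 0.234), and Rpsa, a protein of the small subunit, read 12.68 and 12.28 against 11.31 and 11.39 (1.12, adjusted p = 0.234). Clusters named for ribosomal pseudogenes, whose sequence is close to that of the genes and which the array may not tell apart from them, lay higher in 180 of 206 and lower in 1, with a median of 0.65. The 12 named genes with the smallest p on the higher side held 7 gene models known by number only: Gm10059, Gm7079, Gm20620, Gm7618, Gm10126, Gm6134 and Gm14303, with log2 differences of 1.00 to 1.42. Gm10059 read 15.83 and 15.67 against 14.54 and 14.48, and Gm7079 read 16.13 and 16.06 against 14.95 and 14.83, each with an adjusted p of 0.0537. Their symbols do not say what they encode. Mt2, a metallothionein, read 9.45 and 9.23 against 8.03 and 8.11 (log2 difference 1.27, adjusted p = 0.0684).

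**Figure D3:**
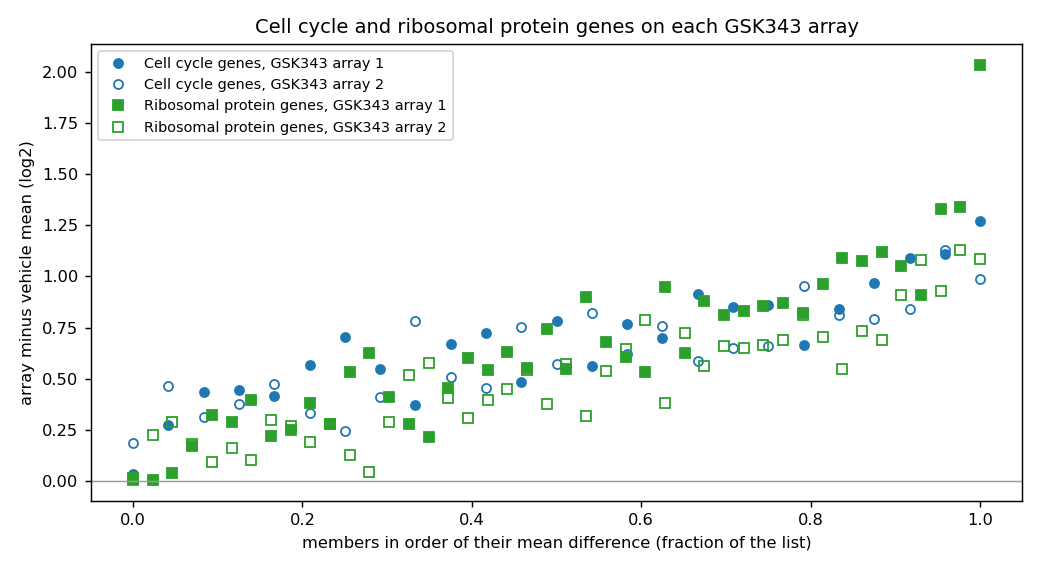
Difference of each GSK343 array from the mean of the vehicle arrays (vertical axis, log2) for 25 cell cycle genes (blue circles) and 44 ribosomal protein genes (green squares), each list in order of its mean difference along the horizontal axis. Filled symbols are GSK343 array 1 and open symbols GSK343 array 2, and both lie above 0 along nearly the whole of both lists.

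None of the PRC2 genes passed the test. Ezh2, the target of the drug, read 9.33 and 9.28 against 8.78 and 9.02 (log2 difference 0.41, 95% interval 0.06 to 0.76, adjusted p = 0.736). Rbbp7, a histone-binding subunit, had the largest difference, 0.63 (adjusted p = 0.646), at 11.28 and 10.95 against 10.39 and 10.59. Suz12, a scaffold subunit, read 9.83 and 10.11 against 9.89 and 10.13, and Eed, which binds the methylated histone, read 10.35 and 10.14 against 10.50 and 10.23; the groups of both overlapped. Of the 12 subunits 6 lay higher without overlap and 2 lower, against 24.7% and 16.5% of all named genes, with a median of 0.07, and 3 had an unadjusted p under 0.05 on the higher side, against 4.99%. The catalytic relative Ezh1 read 9.68 and 10.23 against 10.47 and 10.17. Of 15 PRC1 subunits 5 lay higher and 3 lower, with a median of 0.06 and a range of −0.15 to 0.28. Genes whose products remove or oppose the H3K27 mark lay lower in 8 of 11 and higher in 1, with a median of −0.32 (−0.21 without GSK343 array 1, where 8 of 11 still lay below both vehicle arrays), and none passed; Kdm6b, an H3K27 demethylase, read 10.41 and 11.01 against 11.49 and 11.38.

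Of the genes that PRC2 keeps silent in most tissues, most HOX, developmental and germline genes stayed near background. Of 33 HOX genes, 1 lay above background on both arrays of a group, and the median difference was 0.00. Without overlap, 7 lay higher (21.2%) and 5 lower (15.2%), against 24.7% and 16.5% of all named genes. Hoxb8 read 6.34 and 6.15 against 5.83 and 5.97; the cells carry HOXB8 as a transgene, and these probes may not tell it from the endogenous gene. Of 50 developmental transcription factors 9 lay higher (18.0%) and 12 lower (24.0%), with a median of −0.02, and 47 were never above background. Germline genes had a median of 0.03, with none of 15 ever above background, and fetal program genes a median of −0.04 over 10. Above background on both arrays of a group were 4 of these 10 fetal genes and 4 of 7 CDK inhibitor genes. The CDK inhibitor genes had a median of −0.21 over 7: Cdkn2c read 6.57 and 6.69 against 6.09 and 6.06, whereas Cdkn1b read 10.31 and 10.50 against 10.92 and 10.93 (adjusted p = 0.868). None of the members of these 5 lists passed the test, and the smallest adjusted p was 0.497.

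Neutrophil function genes showed no called member. The counts without overlap given below stand against 24.7% of all named genes higher and 16.5% lower. The NADPH oxidase genes had a median of −0.09 over 6, with none higher and 2 lower without overlap. Migration and growth factor receptors lay lower in 7 of 14 and higher in 2, with a median of −0.22 that was −0.12 without GSK343 array 1, −0.41 without GSK343 array 2 and −0.39 without vehicle array 2; Ccr1, a chemokine receptor, read 11.50 and 11.78 against 12.58 and 12.46 (log2 difference −0.88, adjusted p = 0.690), and C3ar1, a complement receptor, lay the other way at 12.40 and 11.94 against 11.46 and 10.90. Pattern recognition receptors had a median of −0.02 over 26 and granulocyte transcription factors one of 0.04 over 10, which was −0.02 after quantile normalization. Interferon-stimulated genes lay lower in 9 of 23 and higher in 2, with a median of −0.20 that was −0.04 without GSK343 array 1, −0.08 without vehicle array 1 and −0.39 without vehicle array 2. On GSK343 array 1, 15 of the 23 lay below both vehicle arrays, and on GSK343 array 2, 9 did. These single-array counts do not stand against the 16.5%, and the like share of all named genes was not computed. Inflammatory genes lay lower in 10 of 22 and higher in 4, with a median of −0.11. Autophagy and lysosome genes lay higher in 10 of 23 and lower in 4; Ctsl, cathepsin L, read 12.81 and 12.55 against 11.67 and 11.42 (log2 difference 1.13, adjusted p = 0.166), and Gpnmb read 15.69 and 15.70 against 15.28 and 14.59. Ctsh, cathepsin H, read 7.73 and 8.02 against 6.86 and 6.81. Plk2, a p53 target, read 6.79 and 7.09 against 6.02 and 5.88 (0.99, adjusted p = 0.234), in a list with a median of 0.05. Stress response genes had a median of 0.23 and lay higher in 8 of 14, and cholesterol, MHC and BCL2 family genes had medians of −0.06, 0.03 and 0.04. Drug metabolism and efflux genes had a median of −0.01 over 12; Gstm1, a glutathione transferase, read 12.66 and 13.02 against 12.21 and 11.71 (log2 difference 0.88, adjusted p = 0.656).

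The markers of other cell types gave the level of each in these arrays. Monocyte and macrophage genes lay higher without overlap in 8 of 19 and lower in none, against 24.7% and 16.5% of all named genes. Their median was 0.13. Adgre1, the F4/80 antigen, read 14.53 and 14.16 against 13.71 and 13.35. The summed signal of the list was 189168 and 210348 with GSK343 against 194434 and 172910 with vehicle. Lyz1 held the largest share of it, at 16.59 and 16.93 against 16.93 and 16.93. It was among the bright clusters whose values were equal on all arrays but GSK343 array 1. The sum is therefore not read for the other members. B cell and NK cell markers were never above background, and T cell markers in all but 1 case, with summed signals of 125 and 119 against 124 and 126, 106 and 95 against 95 and 102, and 319 and 323 against 249 and 266. Erythroid and megakaryocyte markers reached 618 and 519 against 484 and 466, with Car2, carbonic anhydrase 2, at 7.64 and 7.16 against 6.58 and 6.70. Dendritic cell markers had a median of 0.03 and stromal and endothelial markers one of −0.01. The part of these markers in the results above was not tested.

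Genes lower with GSK343 outside the lists included Gm19340 (4.30 and 4.38 against 5.88 and 5.88, adjusted p = 0.0537), whose treated arrays lay below background and which was at least 1.82-fold lower. Zfp36l1, an RNA-binding protein that destabilizes transcripts, read 9.51 and 9.59 against 10.23 and 10.28 (log2 difference −0.70, adjusted p = 0.234), and Zfhx3, a transcription factor, read 7.21 and 7.54 against 8.47 and 8.27 (adjusted p = 0.259). Rin2, which binds Ras and Rab proteins, read 7.45 and 7.70 against 8.47 and 8.23. A pair of immunoglobulin heavy chain variable segments (−1.24 and −1.34), the olfactory receptor gene Olfr850 (at least 1.13-fold lower, its treated arrays lying below background) and 4930555K19Rik (−0.58) completed the 12 genes with the smallest p on the lower side. By a 2-fold rule, 160 named genes were at least 2-fold higher, above background and non-overlapping (0.52%), and 44 were lower by the same rule (0.143%). Protein-coding genes made up 38 of the 160 and 29 of the 44, and 79 of the 160 were unnamed gene models. On GSK343 array 2 alone, 81 of the 160 and 27 of the 44 were at least 2-fold from the vehicle mean. Array 2 had a part in the choice of these genes, so this is not an independent check.

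The arrays labelled Ezh2-/- gave a second comparison, of neutrophils with that label against wild-type neutrophils, on 4 other arrays. The label cannot be checked by the Ezh2 level there, which read 8.74 and 9.02 against 8.31 and 8.34 in wild type and so was not lower. In that comparison 3087 named genes were called higher (10.0%) and 1963 lower (6.38%). These shares are over all 30748 named genes, of which 11844 lay above background on both GSK343 or both vehicle arrays. The 2-fold genes were chosen above background, so their shares below are not like for like with these. The share called among genes above background was not computed. Of the 160 genes at least 2-fold higher with GSK343, 119 (74.4%) were called higher with the label, which is 3.85% of the genes so called, and 2 were called lower. The 160 held 33 ribosomal protein genes or pseudogenes and 79 gene models known by number only. Some clusters, such as Rps12-ps6, Rps12-ps17 and Rps12-ps18, had the same value on each drug array. The 160 are therefore not as many separate signals. Of the 44 lower genes 13 (29.5%) were called lower with the label, 0.662% of the genes so called, and 3 were called higher. Among those at least 2-fold apart on GSK343 array 2 alone, which had a part in their choice, 62 of 81 (76.5%) were called higher and 4 of 27 (14.8%) lower with the label. The 2 comparisons share no arrays. Array medians were 3.88 to 3.96 on the drug and vehicle arrays and 4.61 to 4.65 on the arrays of the label comparison. Of the 25 cell cycle genes 22 were called higher with the label.

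Single genes differed in how the effects of drug and label compared. Cpa3 differed by 11.47 with the label and by 2.99 with GSK343, a difference between the 2 effects of −8.48 (adjusted p = 2.38e-06). Its starting levels were unlike, at 7.25 and 8.02 in untreated wild type against 11.76 and 11.93 with vehicle. With the label Cpa3 read 19.09 and 19.12, near the highest value of those arrays (19.63). Mpo differed by 3.48 and 2.64, and Prss34 by 2.58 and 2.38, with adjusted p = 0.776 and 0.936 for the difference between effects. The drug and label effects differed at an adjusted p under 0.05 in 2177 clusters (3.3%). Mpo and Prss34 had like estimates, whose difference was not resolved. Epx was −0.60 with the label and 2.33 with GSK343 (adjusted p = 0.00124 for the difference), and Prg2 0.47 and 3.66 (adjusted p = 0.0568). Mmp8 was −0.39 with the label against −3.90 with the drug (adjusted p = 0.0252), and Mmp9 −0.47 against −2.91 (adjusted p = 0.0573). Plbd1 was −8.63 against −2.43 (adjusted p = 0.000488), Camp −4.74 against −0.50 (adjusted p = 0.00377) and Hpse −6.55 against 0.80 (adjusted p = 0.000337). Plbd1 read 4.02 and 3.98 on the arrays labelled Ezh2-/-, below background, so −8.63 is not an exact size. Mt2 was 5.36 with the label and 1.27 with GSK343 (adjusted p = 1.12e-05). Mmp8 thus differed more with the drug, and Cpa3, Plbd1, Camp and Mt2 more with the label. For Epx the label effect could not be measured.

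**Figure D4:**
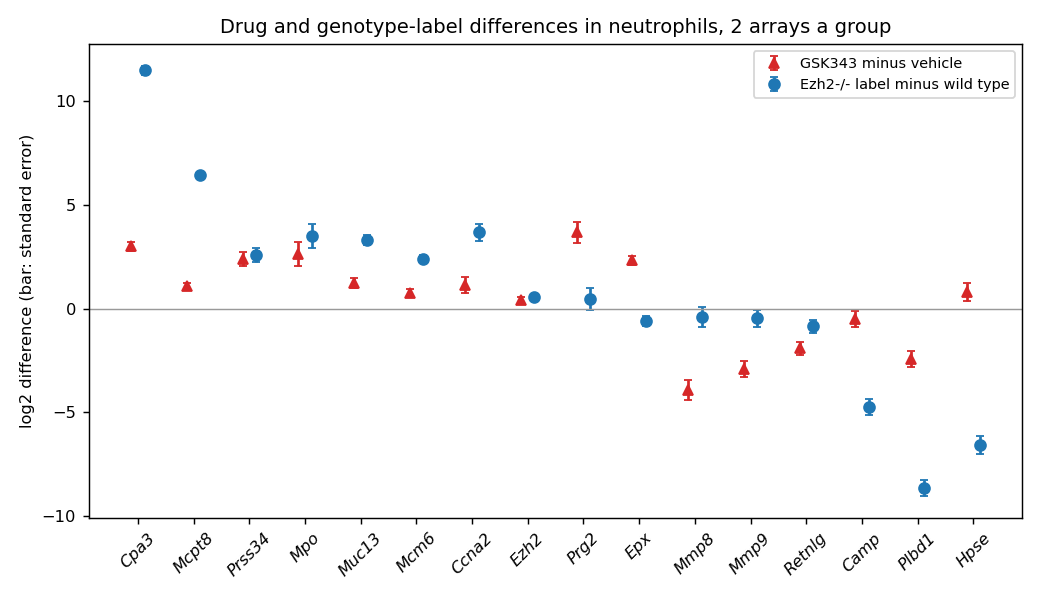
Log2 differences (vertical axis) of 16 genes for GSK343 minus vehicle (red triangles) and for the Ezh2-/- label minus wild type in neutrophils (blue circles), with bars of 1 standard error from the model. Cpa3 lies at 2.99 and 11.47, Mmp8 at −3.90 and −0.39, and Plbd1 at −2.43 and −8.63. All Epx arrays of the label comparison and the Plbd1 arrays labelled Ezh2-/- lay below background.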

How the data were processed

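RNA (250 ng per sample) from each of 12 samples was read on the Mouse Transcriptome Array 1.0 of Affymetrix, and the authors deposited 1 log2 signal per transcript cluster and array. Per the submitters' processing notes, the tools were Transcriptome Analysis Console and Affymetrix Expression Console. Tool versions, genome build and probe summarisation: each was not given in the sources used here. All columns of the value table matched a sample title. Of the clusters, 31221 carried 1 gene symbol, 1529 several and 33206 none; symbols were updated by Entrez ID through RefSeq (GRCm38.p6), which matched 23435 and changed 827. This left 30748 genes, and for 364 genes with several clusters the one with the highest mean stood for the gene.

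The log2 signals of all 12 arrays were fitted as 6 group means by lmFit and eBayes of limma 3.58.1 in R 4.3.3 (6 residual and 3.06 prior degrees of freedom), and p-values were adjusted by Benjamini-Hochberg over all 65956 clusters, with calls at an adjusted p under 0.05. The procedure was tested on simulated data. It recovered 46% of 50 clusters changed 2-fold and 94% of 50 changed 4-fold, with 3 false calls. A 2-fold change was thus often missed. A fold is written "at least" where the dimmer group lay at or below background on both arrays, and is then taken against the higher of background and the gene's own signal. Genes named are the 12 with the smallest p on each side, filled up at 1.5-fold where fewer were called, among 1-symbol clusters above background and without overlap, with the PRC2 subunits, up to 4 members of each list by p, and the neutrophil markers. Other list members given were chosen after their values were seen. The members, lists and rules were chosen with earlier results of these data known. Replicate numbers come from the titles; the sample descriptions number the GSK343 arrays 2 and 3 and the vehicle arrays 1 and 2. By title number, the deviations of same-numbered drug arrays correlated at −0.193. Those of crossed numbers, such as GSK343 array 1 and vehicle array 2, correlated at 0.193. With 2 arrays a group these values are opposite by construction, so they cannot decide whether arrays were paired. The main model took no pairs. Promoters of Prg2 and Mmp9 were not analysed here. Alternatives were other array sets, scalings, filters, variance priors, replicate blocks, background limits and leaving out each drug array.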

Additional observations from a re-analysis of the deposited data

How the results depend on the processing

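The count of called clusters, 1 in the analysis reported, depended on the processing. It was 1 (Cpa3) after quantile normalization within the array ranges and 1 (Mmp8, so 0 higher and 1 lower) with the 4 drug arrays alone. Centring arrays on their medians gave 8 calls (7 higher, 1 lower), clusters with 1 symbol only gave 9 (8 higher, 1 lower), clusters above background only gave 2, both higher, and eBayes with trend and robust settings gave 3, all higher. A replicate block within each array range gave 2 calls, Cpa3 and Mmp8, of which 1 was lower. A replicate block with the 4 drug arrays alone gave 0 calls at 5068 clusters with an unadjusted p under 0.05. A crossed pairing of the vehicle numbers, added after the data were seen, gave 2 calls, 1 of them lower. Leaving out 1 array gave 0 to 2 calls, all higher, and 157 to 776 clusters at least 2-fold higher and 118 to 590 lower: without GSK343 array 1 the counts were 157 and 118, without GSK343 array 2 they were 776 and 590, and without vehicle array 2 the lower count was 522. With 1-symbol clusters only, 44 were at least 2-fold lower. Among list members, called genes numbered 2 with centring, with clusters above background, with 1 symbol, with trend and robust settings and with the replicate block or the crossed pairing, 0 with the block on 4 arrays, and 0 with any 1 array left out. The count of clusters whose drug and label effects differed, 2177, was 947 to 1176 with 1 array left out, where fewer samples remained.

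Epx passed the test with centring (adjusted p = 0.0495), clusters above background (0.0287), 1 symbol (0.0204) and trend and robust settings (0.0304). Of the genes named, signs turned in Bpi (−0.03 to 0.02 around 0.00), E2f1 (−0.01 to 0.22 with 1 array left out), Eed (−0.25 to 0.01), Il5ra (−0.08 to 0.24) and Suz12 (−0.18 to 0.10), and the cause was not tested. With 1 array left out, the list medians stayed at 0.87 to 0.95 for primary granule genes, 0.62 to 0.70 for cell cycle genes and 0.52 to 0.61 for ribosomal protein genes. The group left with 1 array is then assumed to vary like the others. A background limit from the negative controls left 18314 clusters above background in a group in place of 19805.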

Other observations

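Small structural RNAs varied between the GSK343 arrays. The 34 ribosomal RNA clusters had a median difference of 0.91 between GSK343 and vehicle, but their median gap between GSK343 array 1 and GSK343 array 2 was 1.68, and 32 of the 34 overlapped between groups. Of 66 small nucleolar RNA clusters 20 lay higher without overlap and 4 lower, with a median of 0.13. Among 869 named miRNA clusters 139 lay higher and 214 lower, and the smallest adjusted p was 0.346 (limma). The miRNA shares were 16% and 24.6%, against 24.7% and 16.5% of all named genes.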
